A study of Mus musculus with 80 samples.

Results

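The cytosolic ribosome of the mouse carries the proteins of a large set of genes named Rpl (large subunit) and Rps (small subunit). The messenger RNA of these genes was read here cell by cell in medium spiny neurons (MSN) of the striatum. The genes were taken by name: Rpl or Rps followed by a number and at most one of the letters a, l, x or y, together with Rplp0, Rplp1, Rplp2 and Rpsa. This gave 81 of the 25160 genes of the expression table, 49 of the large and 32 of the small subunit. By their names 76 of them were core ribosomal protein genes and 5 ended in "l" (Rpl3l, Rpl6l, Rpl10l, Rps4l, Rps27l), the ending given to paralogs and copies. GENCODE M21, an annotation of the GRCm38 genome, lists Rpl6l and Rps4l as pseudogenes. The name rule leaves out, among others, Fau, Rps3a1 and Rack1, whose proteins also sit in the ribosome, and these are given beside the members further on.

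A ribosome joins amino acids into protein, and each of its subunits is built in the nucleolus from ribosomal RNA and these proteins, most in near-equal numbers. Ribosomal protein mRNAs are among the most abundant in most cells, and many begin with a C followed by a run of pyrimidines, the 5′ terminal oligopyrimidine tract through which the mTOR pathway sets their translation. In striatal neurons several of the proteins are also tools: tagged Rpl10a or Rpl22 lets the mRNA on ribosomes be pulled from a chosen cell type, and phosphorylated Rps6 is a common mark of neuronal activity.

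The cells came from the dorsomedial striatum of adult mice heterozygous for both of 2 BAC reporter transgenes, Drd1a-TdTomato and Drd2-EGFP, which mark by fluorescence the cells that express the D1 or the D2 dopamine receptor, so every animal carried both. Single cells were sorted by FACS into plates, and cDNA of each cell was sequenced (scRNA-Seq). The 40 Drd1a-TdTomato cells are called D1 MSN. Of the 40 Drd2-EGFP cells, 2 had more than 100 TPM of Chat, the enzyme that makes acetylcholine. They were set aside as cholinergic interneurons, which leaves 38 D2 MSN. TPM, a transcript measure, correct for gene length and set every cell to one common total. Read numbers cannot be recovered from them, the sequencing depth of a cell is therefore not known, and a gene without signal is described as listed at 0. Since no label ties a cell to its animal, and cells that share an animal are not replicates, each subtype was treated as 1 sample and no test was made. Differences are set beside the spread over cells or beside the values on the 2 large plates, FACS051_5 (18 D1 MSN and 16 D2 MSN) and FACS086_4 (21 and 19), and where a pair of plate folds is given FACS051_5 comes first. A plate cannot be told apart from an animal. The remaining 4 MSN lay on plate FACS086_9.

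The labels were checked against marker genes. Ppp1r1b, which encodes the MSN phosphoprotein DARPP-32, was above 1 TPM in 78 of 78 MSN. Drd1 was above 1 TPM in 38 D1 and 3 D2 MSN, and Drd2 in 2 D1 and 26 D2 MSN. Other markers of D1 MSN gave 22 and 2 cells (Pdyn), 24 and 1 (Isl1) and 39 and 22 (Tac1), D1 MSN first. Other markers of D2 MSN gave 1 and 31 cells (Adora2a), 0 and 30 (Gpr6) and 40 and 38 (Penk). The medians in D1 and D2 MSN were 899.5 and 1.375 TPM for Tac1 and 11.42 and 10688 TPM for Penk. A D2 MSN reached 1218 TPM of Tac1, and a D1 MSN 3676 TPM of Penk. Between 648 and 8657 genes per cell were above 1 TPM in D1 MSN (median 5722) and between 1215 and 7942 in D2 MSN (median 4928). The paper states that usable data came from slightly fewer cells than it attempted to sequence. All 80 deposited cells were kept here, and 3 of them had fewer than 2000 genes above 1 TPM. A D1 MSN, FACS051_5_D04, held 13896 TPM of astrocyte markers, against a median of 1.02 TPM over all MSN. Another D1 MSN, FACS086_4_B02, had only 648 genes above 1 TPM and held 422297 TPM on the single gene Gm29013. That gene was high in other cells too: it was above 1 TPM in 78 of 78 MSN, with a lowest value of 5467 TPM and a median of 38070 TPM. Its Spearman correlation with the summed TPM of the members was -0.50 over the MSN. Values without cells FACS051_5_D04 and FACS086_4_B02 are given where they change a result.

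The start of the transcript shows what the members share outside their coding parts. RefSeq start sites (GRCm38.p6) were matched for 59 members with 71 start sites, and a tract was looked for as a C followed by C or T only, at least 5 bases long in all and opening within 5 bases of the start. It was found at 30 of the 71 start sites (42.3%) and at 6027 of all 32851 start sites of the reference (18.3%). Windows of 30 bases, whose 16th base is the RefSeq start, are shown for 5 of the members with the highest levels, for 3 that differed most between the subtypes (Rps10, Rpl35a, Rps12) and for Rpl27a, which holds the longest tract, 20 bases, running past the end of its window. Capitals mark the tract, and a window without capitals holds none by this rule. RefSeq lists 3 starts each for Rps19, none of them with a tract, and for Rpl35a, of which only the one shown has a tract.
Rpl41 (chr10:128549154-128549183, minus strand): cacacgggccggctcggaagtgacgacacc
Rps19 (chr7:24884577-24884606, plus strand): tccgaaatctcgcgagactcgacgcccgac
Rplp2 (chr7:141447636-141447665, plus strand): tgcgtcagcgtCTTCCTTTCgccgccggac
Rps27 (chr3:90213634-90213663, minus strand): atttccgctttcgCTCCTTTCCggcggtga
Rpl9 (chr5:65391417-65391446, minus strand): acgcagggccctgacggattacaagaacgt
Rps10 (chr17:27635230-27635259, minus strand): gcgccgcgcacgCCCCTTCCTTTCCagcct
Rpl35a (chr16:33056467-33056496, plus strand): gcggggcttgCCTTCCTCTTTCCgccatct
Rps12 (chr10:23787195-23787224, minus strand): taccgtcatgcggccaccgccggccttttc
Rpl27a (chr7:109519180-109519209, plus strand): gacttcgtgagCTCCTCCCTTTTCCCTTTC

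Tract and level did not run in parallel among the most abundant members. Rpl41, Rps19 and Rpl9, among the most abundant, had none in these windows, whereas Rplp2 and Rps27 did. Of the 56 core members with a start site, the 27 with a tract had a median level of 230.0 TPM and the others 143.6 TPM, as a description of this window only. A RefSeq start may also differ by some bases from the start used in these cells.

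The summed level of the 81 genes was first compared between the subtypes, as a measure of how much of each cell's mRNA codes for ribosomal proteins. In D1 MSN the sum ran from 34.6 to 57620 TPM with a median of 17381 (mean 18883 ± 8947, SD over 40 cells). In D2 MSN it ran from 7509 to 31241 TPM with a median of 21071 (mean 19379 ± 6176, SD over 38 cells). The subtypes overlapped almost fully, since 36 of 40 D1 MSN lay inside the range of the D2 MSN, and the log2 ratio of the means was -0.04, far inside the spread of the cells. The members took a median of 2.05% of the listed TPM of a D1 MSN and 2.39% of a D2 MSN.

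Plates differed more than subtypes did within a plate. The log2 ratio of FACS051_5 over FACS086_4 was 0.26 for medians and 0.52 for means in D1 MSN, and 0.24 and 0.29 in D2 MSN. The median D1 MSN held 20063 TPM on plate FACS051_5 and 16745 TPM on plate FACS086_4, and the median D2 MSN 22478 and 19006 TPM. On both large plates the D2 median was thus the higher, by a log2 ratio of medians (D1 over D2) of -0.16 and -0.18, while the ratio of means was 0.03 on the first and -0.20 on the second. The highest cell, the D1 MSN FACS051_5_C06, held 6.01% of its listed TPM on these genes but only 2871 genes above 1 TPM, and the lowest was FACS086_4_B02. The cholinergic interneurons held 32879 and 27654 TPM, above 75 and 72 of the 78 MSN.

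**Figure D1:**
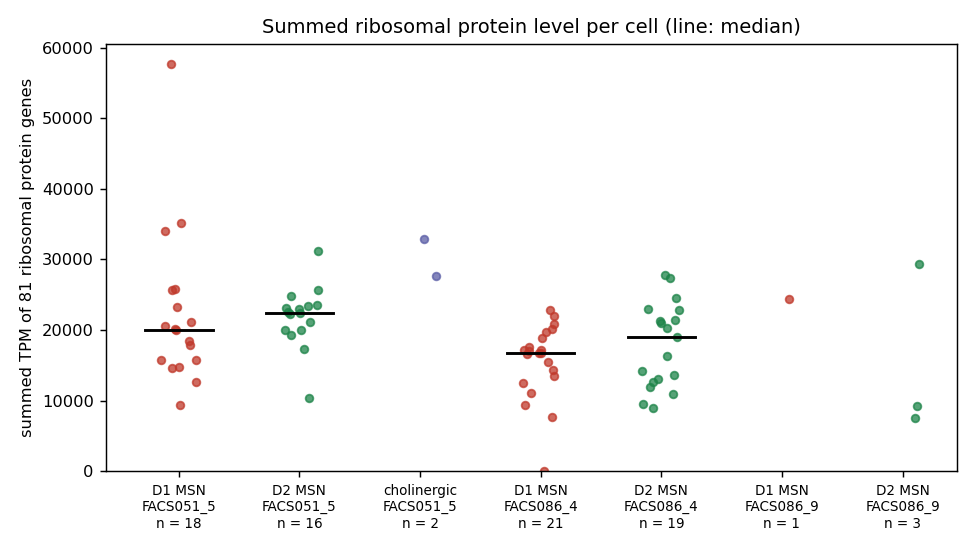
Summed TPM of the 81 ribosomal protein genes in each cell (vertical axis, TPM), by subtype and plate; points are cells, and the line is the median where a group holds more than 3 cells. The medians lie between 16745 and 22478 TPM, the groups overlap, and a D1 MSN at 57620 TPM stands far above the rest.

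Large and small subunit genes moved together. The large subunit sum was a median of 1.66 times the small subunit sum over the 78 MSN (range 0.716 to 2.79), with 49 genes against 32, and the median core gene was alike in both, at 227.5 TPM for the large and 220.5 TPM for the small subunit. Over the 78 MSN the 2 sums had a Spearman correlation of 0.79, between 0.48 and 0.89 within the 4 groups of subtype and large plate. This was not particular to the 2 subunits. The sum of all members and that of the genes of the mitochondrial ribosome, taken up below, had 0.72, between 0.39 and 0.75 within those groups. In each cell all these sums come from the same library, so depth and composition are shared.

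Levels differed widely among members, most of which the ribosome uses in near-equal numbers. The median core gene averaged 227.5 TPM over the 78 MSN, with quartiles at 126.4 and 319.3 TPM, and only 427 of all listed genes (1.70%) averaged more than that median. The 77 mitochondrial ribosomal protein genes, which serve the separate ribosome of the mitochondrion, had a median of 52.1 TPM. The 10 highest members held 29.9% of the summed mean.

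Rpl41, the shortest ribosomal protein with 25 residues, led with a mean of 916 TPM. It ran from 2.43 to 2485 TPM in D1 MSN (median 748) and from 184 to 2511 TPM in D2 MSN (median 865), was above 1 TPM in 78 of 78 MSN, and was the highest member in 22 of them. Rps19, a small subunit protein mutated in Diamond-Blackfan anemia, followed with 822 TPM, from 0 to 3356 TPM in D1 MSN (median 728) and from 0 to 2434 TPM in D2 MSN (median 859). The gap between them is well below their SD over single cells, 529 to 630 TPM in each subtype. That SD does not measure how certain the order of the means is, and the order was not tested. Rps29 was the only other member above 1 TPM in all 78 MSN, from 1.16 to 1804 TPM in D1 MSN (median 348) and from 12.2 to 1253 TPM in D2 MSN (median 345).

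Next came Rplp2 (684 TPM), Rps14 (530 TPM), Rplp1 (502 TPM), Rps27 (480 TPM) and Rpl9 (469 TPM), and Rpl19 (439 TPM) was also among the 10 highest, each in mean TPM over the 78 MSN and in 70 to 76 of them above 1 TPM. No members next to each other in this row were further apart than their SD over cells, and the order of their means was not tested. Levels were almost unrelated to protein length, with a Spearman correlation over the 76 core genes of -0.16 between mean TPM and residues, which run from 25 to 419. The 7 members fixed as the shortest proteins had a median of 320.3 TPM, but Rpl39 with 51 residues averaged only 83.2 TPM.

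The paralogs lay at the low end, where some core genes lay too. Rpl10l, a testis paralog of Rpl10, stayed at or below 0.797 TPM in all MSN, and 0 of 78 cells were above 1 TPM (exact 95% upper limits of 8.81% in D1 and 9.25% in D2 MSN, for counting error only). Rpl3l, a muscle paralog of Rpl3, reached 43.6 TPM in 1 D1 MSN, and the other 77 MSN had it listed at 0. Rpl6l reached 5.67 TPM at most. Rps27l, a p53 target, averaged 28.3 TPM from 20 of 78 MSN, and Rps4l averaged 31.6 TPM from 16 of 78. Rpl22l1 and Rpl36al, paralogs that the name rule leaves out, were as abundant as many core genes, at 340.5 and 209.1 TPM.

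**Figure D2:**
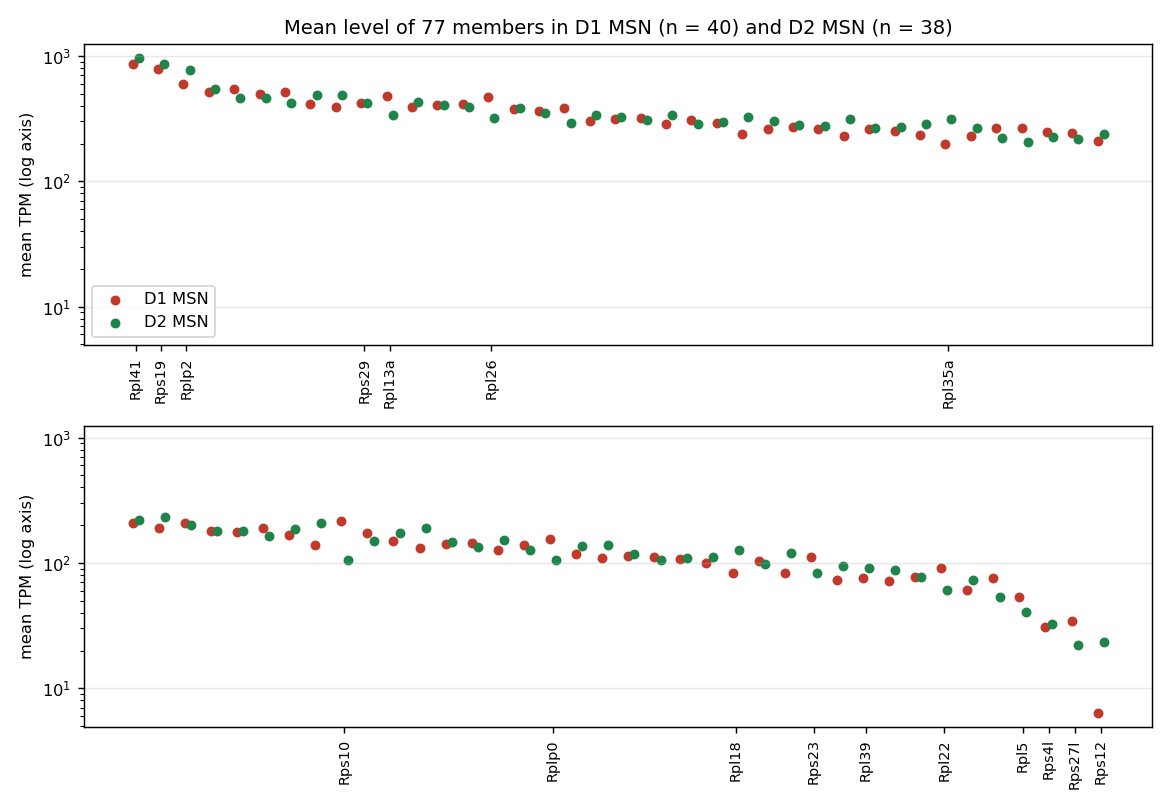
Mean TPM (vertical log axis) of the 77 members that averaged at least 10 TPM over the MSN, ordered by that mean, in D1 MSN (red) and D2 MSN (green), with the names of some of them on the horizontal axis. The levels run from Rpl41 at 916 TPM to Rps12 at 14.7 TPM, and the subtypes lie close together for most genes, with Rps10 and Rps12 the farthest apart.

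The lowest core genes were Rpl12 (6.98 TPM) and Rps12 (14.7 TPM), and here the rest of the table matters. Ribosomal protein genes have left many processed pseudogenes in the genome. The search covered gene names of the table outside the 81 members with transcripts that GENCODE M21 lists as pseudogenes, and no protein-coding genes. Those whose transcripts match a member's coding part with at least 90% identity over at least 80% of its length were counted as copies. There were 454 of them, for 69 of the 81 members. Reads from a gene and from an identical copy cannot be told apart, and how such reads were counted is not given in the sources used here.

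The copies held a summed mean of 5418 TPM beside 19124 TPM on the members, 22.1% of both together, and only 35 of them averaged at least 10 TPM. For 20 members the copies held more TPM than the gene itself. Rpl12, a large subunit protein at the base of the stalk, had 6.98 TPM on its own row and 178.8 TPM on Gm10275, whose sequence is 100.0% identical over its coding part. Rps12 had 14.7 TPM against 147.9 TPM on the identical Rps12l1. Rps23, a protein of the decoding center, had 97.7 TPM against 462.1 TPM on Rps23-ps1, and Rpl5 had 47.0 TPM against 230.1 TPM on Gm15500, both 100.0% identical to their members.

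With the copies added, the range of the core genes narrowed from 131.1-fold to 11.9-fold between highest and lowest, and Rps23 moved from rank 66 to rank 5, Rpl31 from 38 to 4 and Rpl38 from 24 to 6. Rpl41, Rps19 and Rplp2 kept ranks 1 to 3, with at most 1.82 TPM on copies. Levels of Rpl5, Rpl10, Rpl10a, Rpl11, Rpl12, Rpl13, Rpl15, Rpl27, Rpl27a, Rpl28, Rpl31, Rpl36a, Rpl37, Rps6, Rps7, Rps12, Rps13, Rps16, Rps20 and Rps23, the 20 members named above by count, are thus uncertain. Members with less on copies than on their own row are not free of this. Rpl38 had 248.4 TPM on the identical Rpl38-ps2, Rps27a 132.9 TPM on Gm8430 (99.79% identical) and Rps29 71.6 TPM on the identical Gm14303. The level of the copies followed that of the members from cell to cell, with a Spearman correlation of the 2 sums of 0.85 over the 78 MSN and 0.65 to 0.92 within subtype and plate.

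**Figure D3:**
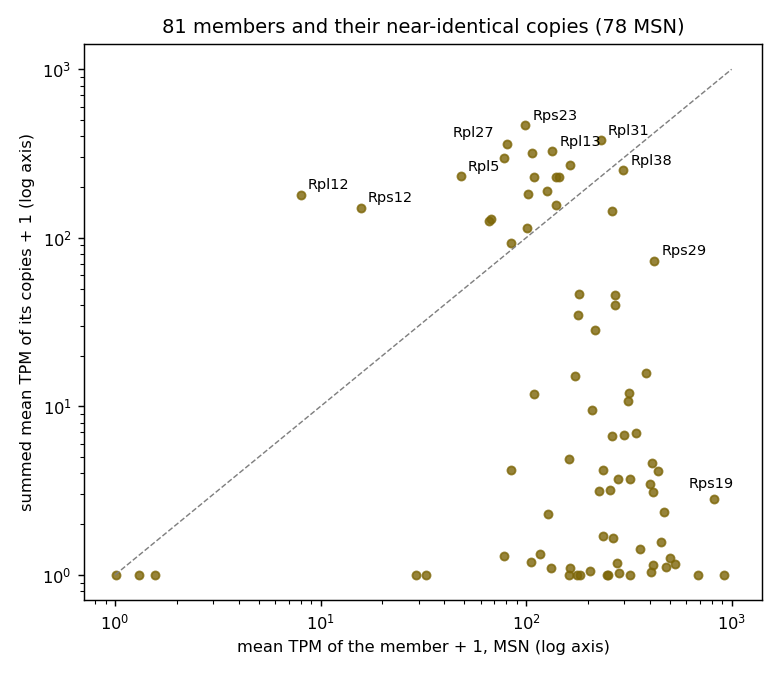
Mean TPM of each of the 81 members over the 78 MSN plus 1 (horizontal log axis) against the summed mean TPM of its near-identical copies plus 1 (vertical log axis); the dashed line marks equal values. The 20 members above the line, Rps23, Rpl5, Rpl12 and Rps12 among them, hold more TPM on copies than on their own row.

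The second comparison asked which members differed between D1 and D2 MSN. The log2 fold is that of the mean TPM plus 1, D1 over D2, for the 77 members that averaged at least 10 TPM. Differences were small. The median fold was -0.05 (median over all 7642 genes with that mean, 0.01), and 29 of 77 members (37.7%) were higher in D1 MSN, where the same was true of 50.7% of all genes. Only Rps10 had a fold above 1, against 12.4% of all genes, and only Rps12 a fold below -1, against 9.58% of all genes. Genes of higher level have smaller folds in this table, so members were also set beside other genes of like level. For the 37 members averaging 200 to 500 TPM the median size of the fold was 0.15, and for the 335 other genes in that band 0.22. For the 23 members averaging 100 to 200 TPM it was 0.20, against 0.27 for 580 other genes.

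The plates did not give the same picture. The median fold of the members was 0.02 on plate FACS051_5 (all genes -0.06) and -0.20 on plate FACS086_4 (all genes 0.003). The members thus lay above all genes on the first plate and below them on the second. Some 13 members (16.9%) were higher in D1 MSN on both, where 23.9% of all genes were, and 22 (28.6%) were lower on both, where 26.7% of all genes were. With the mean of log2 values in place of the mean TPM, the median fold of the members was 0.03 and that of all genes 0.16, so the members lay below all genes under either way of averaging. Without cell FACS086_4_B02, 48.1% of the members were higher in D1 MSN.

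Rps10 (chr17:27630418-27636669, GRCm38, minus strand), a small subunit protein also mutated in Diamond-Blackfan anemia, was the member that leaned most to D1 MSN. It ran from 0 to 970.9 TPM in D1 MSN (median 139) and from 0 to 731 TPM in D2 MSN (median 9.96), with means of 215 and 106 TPM. Cells above 1 TPM numbered 36 of 40 D1 MSN (exact 95% interval 76.3 to 97.2%) and 22 of 38 D2 MSN (40.8 to 73.7%), intervals that cover counting error only. The subtypes overlapped in level, and the median cell held far less in D2 than in D1 MSN.

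The fold of Rps10 was 1.01 in all, 1.27 on plate FACS051_5 and 0.24 on plate FACS086_4, so its size differed between plates. The share of cells above 1 TPM was higher in D1 MSN on both large plates: 18 of 18 D1 against 13 of 16 D2 MSN on the first plate, and 17 of 21 against 8 of 19 on the second. D1 MSN also had more genes found per cell on the second plate (medians of 5730 and 4617), and on the first they had fewer (5109 and 5923). Its copies held 0.10 TPM, so the fold with copies was the same, 1.01. Leaving out any 1 cell gave folds from 0.88 to 1.26.

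Rps12 (chr10:23785183-23787275, GRCm38, minus strand) lay at the other end with a fold of -1.73, and of -2.67 and -0.81 on the large plates. It was listed at 0 in 58 of 78 MSN, reached 83.5 TPM among D1 and 168 TPM among D2 MSN, and was above 1 TPM in 5 D1 and 11 D2 MSN. Together with its copies, which include the identical Rps12l1, the gene averaged 147.9 TPM in D1 MSN, against 182.4 TPM in D2 MSN, a fold of -0.30. The difference in the sum was thus much smaller than on its own row.

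After Rps10, the members that leaned to D1 MSN were Rps27l (fold 0.61), Rpl22 (0.59), Rplp0 (0.55) and Rpl26 (0.55). Rpl22, the protein tagged in RiboTag mice, had a median of 40.9 TPM in D1 and 0.49 TPM in D2 MSN, with highest values of 360 and 482 TPM. Some 27 of 40 D1 and 18 of 38 D2 MSN were above 1 TPM, and its folds were 0.71 and 1.09 on the large plates. Rplp0, the stalk protein that anchors Rplp1 and Rplp2, had medians of 83.4 and 14.7 TPM, highest values of 1054 and 723 TPM, and a fold of 0.50 on each large plate. Rpl26 had 1.04 on the first plate and 0.03 on the second. Over all plates the fold of Rps27l rested on FACS051_5_D04, the cell with astrocyte markers, which held 535.8 TPM of it. Without that cell the fold was -0.05. Its folds were 0.62 and 0.85 on the large plates, and the second plate does not hold that cell. On the second plate 4 D1 and 3 D2 MSN were above 1 TPM, with means of 22.28 and 11.93 TPM.

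On the D2 side stood, among others, Rpl35a (fold -0.66), Rpl18 (-0.62) and Rps3 (-0.53). Rpl35a ran from 0 to 957 TPM in D1 MSN (median 180) and from 0 to 1309 TPM in D2 MSN (median 280), with folds of -0.33 and -1.25 on the large plates. Rpl18 had medians of 13.6 and 51.4 TPM and folds of -0.28 and -1.39. Rps3, which lines the entry of the mRNA channel, had a fold of -0.998 on plate FACS051_5 and 0.13 on plate FACS086_4, so its direction turned between plates.

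**Figure D4:**
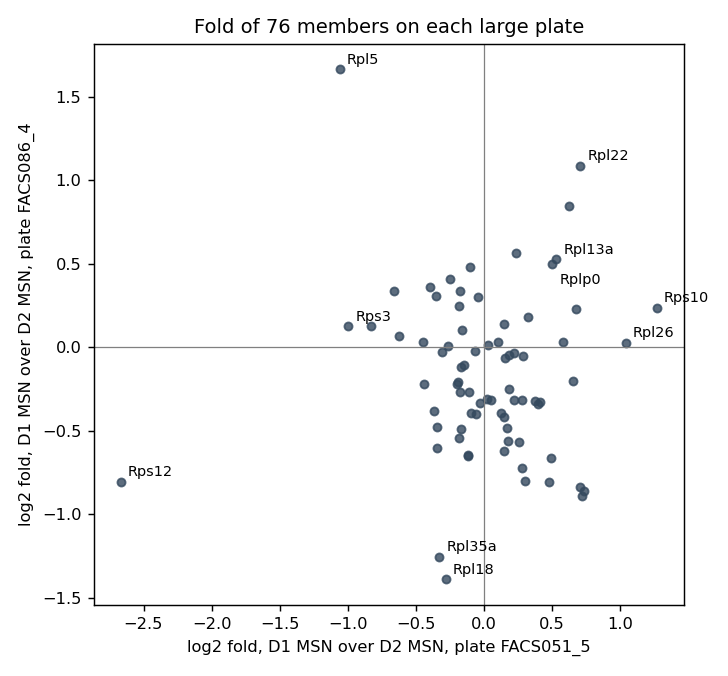
Log2 fold of mean TPM plus 1, D1 over D2 MSN, on plate FACS051_5 (horizontal) and plate FACS086_4 (vertical) for 76 members; Rps4l is left out, since it was at most 0.0151 TPM in the D2 MSN of the second plate. Points lie on all sides of the origin; Rpl22 and Rps12 keep their sign, and Rpl5 turns from -1.06 to 1.66.

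The members were then read by their place in the ribosome. Of the 3 stalk proteins, which draw in elongation factors, Rplp0 and Rplp1 were higher in D1 MSN (folds 0.55 and 0.24) and Rplp2 in D2 MSN (-0.38). Rplp1 changed sign between the plates (-0.05 and 0.30) and Rplp2 did not (-0.12 and -0.65). Rpl5 and Rpl11, which travel with the 5S RNA and bind MDM2, had folds of 0.39 and 0.10, but both turned between plates, Rpl5 from -1.06 to 1.66 and Rpl11 from -0.35 to 0.31. Adding the copies turned Rpl5 to -0.76, with 206.6 TPM in D1 and 351.5 TPM in D2 MSN.

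Of the 4 proteins that reach toward the peptidyl transferase center, Rpl3 had a fold of 0.04, Rpl4 -0.21, Rpl8 -0.15 and Rpl10 -0.53. Rpl8 alone kept its sign on both plates (-0.18 and -0.27), while Rpl3 had -0.40 and 0.36, Rpl4 -0.66 and 0.34 and Rpl10 0.14 and -0.62. Of the 6 around the mouth of the exit tunnel (Rpl17, Rpl23a, Rpl26, Rpl31, Rpl35, Rpl39), 2 were higher in D1 MSN, with folds from -0.45 to 0.55 (2 and 3 on the large plates). Of the 5 at the mRNA channel and decoding site (Rps2, Rps3, Rps9, Rps15, Rps23), 3 were higher in D1 MSN, from -0.53 to 0.44 (2 and 4 on the large plates). Of all 7642 genes 50.7% were higher in D1 MSN, and 3513 and 3831 were on the large plates, so these small counts set neither group apart. Over all plates none of these 3 groups held a member with a fold past 1 in size, and on the plates taken singly Rpl26 alone passed it.

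Members known for work beyond the ribosome did not share a direction. Rps6, the substrate of S6 kinase, had a median of 164.6 TPM in D1 and 95.4 TPM in D2 MSN, with a fold of 0.22 (0.22 and -0.03 on the large plates) and 267.9 TPM more on its copies. Adding the copies turned its fold to -0.08, with 418.7 TPM in D1 and 441.3 TPM in D2 MSN. Rpl13a, which takes part in interferon-driven silencing of translation, had 0.52 in all and 0.53 on each large plate, with medians of 401 and 259 TPM. Rps27a, made as a fusion with ubiquitin, had -0.30 (-0.62 and 0.07 on the plates), and Rpsa, also known as a laminin receptor, -0.03 (-0.18 and 0.34). Rpl10a, the protein tagged for bacTRAP, had medians of 36.8 and 37.4 TPM and a fold of -0.26 (-0.37 and -0.38). Of the 9 Diamond-Blackfan genes fixed as a list, 6 were higher in D1 MSN (50.7% of all genes were), Rps10 being the only one past 1, and the median of their folds was 0.10. On each large plate 4 of the 9 were higher, where 3513 and 3831 of all 7642 genes were. The medians of the 9 were -0.15 and -0.10, so the direction of the list did not hold within plates.

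The ribosomal proteins outside the name rule gave like values. Rps3a1 averaged 269.7 TPM with a fold of -0.52 (-0.33 and -0.73 on the plates), Rack1 190.4 TPM with -0.29 (-0.11 and -0.95) and Fau 121.0 TPM with 0.43 (0.04 and 0.52). Among 18 translation factors and partners averaging at least 10 TPM, 10 were higher in D1 MSN, where 50.7% of all genes were. Of the 18, 0 had a fold past 1 in size, where 12.4% of all genes were above 1 and 9.58% below -1. On plate FACS051_5 6 of the 18 were higher and 2 had a fold below -1, where 3513 and 1406 of all 7642 genes did. On plate FACS086_4 12 were higher and 6 had a fold above 1, where 3831 and 1532 of all 7642 genes did. Eef1a1, which brings tRNA to the ribosome, averaged 713 TPM with a fold of 0.18 (0.07 and 0.09). Among 18 genes of ribosome assembly 9 were higher in D1 MSN (50.7% of all genes were) and 2 had a fold below -1 (9.58% of all genes did), shares near those of all genes. Fbl, the rRNA methyltransferase fibrillarin, was one of them with -1.12 (-2.01 and 0.02). On plate FACS086_4 0 of the 18 assembly genes were below -1, where 1229 of all 7642 genes were. The 77 mitochondrial ribosomal protein genes, all with that mean, had a median fold of -0.11 (-0.25 and -0.14).

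The third comparison set the members against the number of genes found per cell. A cell in which more genes are found also held more members: the Spearman correlation of members above 1 TPM with genes above 1 TPM was 0.65 over the 78 MSN, and 0.46, 0.81, 0.61 and 0.73 in D1 and D2 MSN of plate FACS051_5 and D1 and D2 MSN of plate FACS086_4. Members are part of the genes found, but a small part. The summed level showed no such relation, with correlations of 0.03 over all MSN, -0.18 in D1 MSN and 0.21 in D2 MSN, too weak to read an order from.

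Ordered by genes found and cut into 3 equal parts of 26 MSN, the cells held a median of 57.5, 67.5 and 71.0 members. Their median sums were 18479, 20064 and 17271 TPM. The first part held 9 D1 MSN and the last 17. Its lowest cell, FACS086_4_B02, held 10 members, and the cells of the last part held 59 to 76. Members found were a median of 69.0 in D1 MSN (10 to 75) and 65.5 in D2 MSN (31 to 77), or 71.0 and 73.0 on plate FACS051_5 and 66.0 and 63.0 on plate FACS086_4. The cholinergic interneurons held 76 members each, with 10912 and 10251 genes found.

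**Figure D5:**
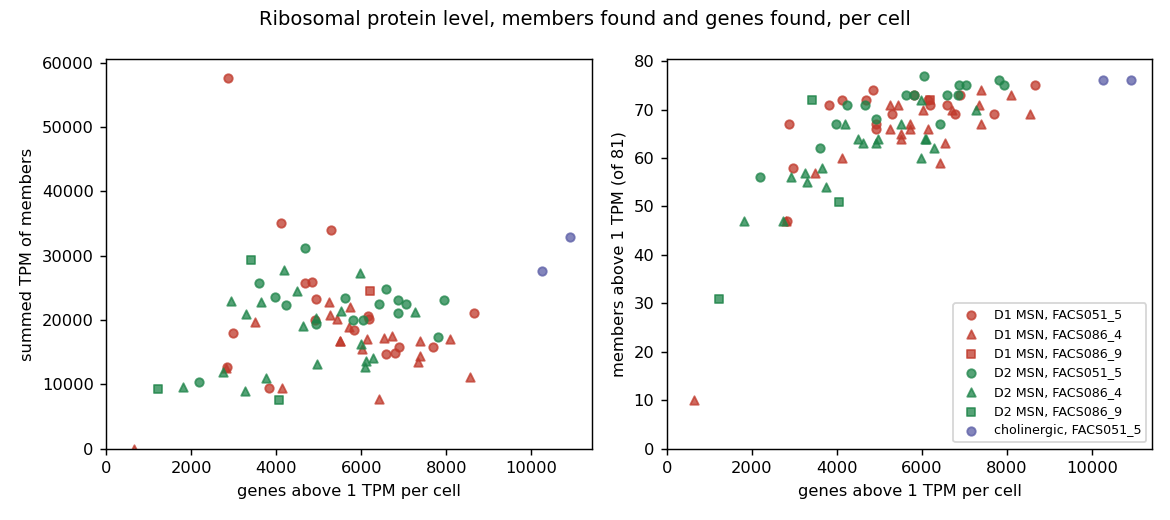
Genes above 1 TPM per cell (horizontal axes) against the summed TPM of the members (left, vertical) and against the number of members above 1 TPM (right, vertical) for 80 cells; color gives the subtype and marker shape the plate. Members found climb with genes found up to about 75, while the summed TPM shows no steady trend.

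The summed level did go with how much of a cell's TPM lay on listed genes. The listed genes of a cell summed to between 506588 and 958040 TPM, and the sources used here do not give what made up the rest. The sum of the members had a Spearman correlation of 0.77 with this listed total over the 78 MSN, 0.51 to 0.79 within subtype and plate. The members' share of the listed TPM had a correlation of -0.02 with genes found. Against reporter fluorescence the sum had correlations of -0.33 (TdTomato, D1 MSN) and -0.04 (EGFP, D2 MSN), both weak. Within the large plates they were -0.36 and -0.05 for TdTomato and 0.23 and 0.11 for EGFP, whose sign thus turned.

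The last comparison asked whether the members vary together from cell to cell. Each varied a great deal: the coefficient of variation over MSN had a median of 0.973 for the core genes. For the 37 members averaging 200 to 500 TPM it was 0.891, against 0.942 for the 335 other genes at that level. The median Spearman correlation of pairs of the 77 members was 0.15 over the 78 MSN, with 88.6% of pairs above 0, where all 7642 genes had 0.08 and 73.0%.

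The lead over other genes differed with level. In the band of 200 to 500 TPM, pairs of members had a median of 0.18 and pairs of other genes 0.16, and from 100 to 200 TPM the values were 0.14 and 0.13. The 5 members above 500 TPM had 0.26 against 0.18 for 65 other genes, the 8 from 50 to 100 TPM had 0.088 against 0.102, below the others, and the 4 from 10 to 50 TPM had 0.098 against 0.071. In a partial correlation that holds the listed total of each cell fixed, the median was 0.07 both for the members and for all genes. With genes found held fixed it was 0.14 for the members and 0.01 for all genes. Within D1 and D2 MSN of plate FACS051_5 the medians were 0.15 and 0.06, and within those of plate FACS086_4 0.15 and 0.10, so the D2 MSN of the first plate lay below the 0.08 of all genes there. All of these are weak correlations of sparse values, given as a description.

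Some members followed the rest more closely than others. Rps7 had the highest correlation with the sum of the other members, 0.64 over the 78 MSN, then Rps19 and Rpl32 with 0.58. All 74 members above 1 TPM in at least 50% of MSN were above 0 (lowest 0.08, median 0.35). Of the 3091 other genes that averaged at least 10 TPM and met that share, 2381 were above 0 (median 0.13). Levels were not matched in this comparison. The closest pairs were Rps19 with Rps7 (0.56) and Rpl3 with Rpl4 (0.55), both large subunit proteins. Rps7 itself held 227.3 TPM on copies against 108 TPM on its own row.

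Among genes that are no members, averaging at least 10 TPM and above 1 TPM in at least 50% of MSN, 10 were most like the sum. Sepw1, a small selenoprotein, led with a Spearman correlation of 0.67 over the 78 MSN. Aldoa (0.63), Pkm (0.63) and Eno1 (0.60) are enzymes of glycolysis, Ubb (0.63) encodes ubiquitin, Oaz1 (0.62) the ornithine decarboxylase antizyme, Cfl1 (0.61) the actin-severing protein cofilin and Fth1 (0.60) the ferritin heavy chain. Zwint had 0.61, and Rps6-ps4, an identical copy of the member Rps6, had 0.62. Their mean levels, 266.3 to 4499 TPM, were as high as those of the members or higher.

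At the other end were Gm37144 (-0.66), A430010J10Rik (-0.61), Npffr1 (-0.60), Gm43652 (-0.60) and RP23-296K6.1 (-0.59). All but Npffr1, a neuropeptide FF receptor, carry the names of predicted or unnamed transcripts. Of translation genes, Eef1a1 had 0.56 and Naca, of the complex on nascent chains, 0.51, and the 15 translation factors that met the limits had a median of 0.28. The 8 genes of ribosome assembly had 0.18 and the 35 mitochondrial ribosomal protein genes 0.18, where the 3091 other genes had 0.13. All of these values share each cell's library and total.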

How the data were processed

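The values analyzed were the TPM per gene and cell that the authors deposited. The submitters' processing notes name STAR 2.5.0, featureCounts 1.5.1 and the build mm10/GRCm38, and how the TPM were made and how reads that match several places were counted is not given in the sources used here. Reads were not counted anew. Members and lists were chosen with earlier results of these data known. Named members were the 10 highest and 10 lowest by mean, the 5 largest folds each way, the 5 found in fewest cells and the lists by role, and some of these are not reported here. Genes outside the set were the 10 most and 5 least like the sum, and the lists of translation and assembly genes. A gene was counted as found above 1 TPM, and 1 TPM was added before logs. Intervals are exact (Clopper-Pearson). Copies were found with blastn 2.17.0 against GENCODE M21 pseudogene transcripts, and positions are from GENCODE M21. The fold and the pair correlation were tested on simulated data. Cells were grouped by reporter label, and cholinergic cells by Chat, a limit set with values known. Computing was done in Python 3.11.15 with pandas 2.3.3 and numpy 2.4.6, and intervals in scipy 1.17.1.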

Additional observations from a re-analysis of the deposited data

How the results depend on the processing

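No paired analysis was possible because no label ties single cells of one subtype to those of the other, and values within plates, which hold both subtypes, stand in the report. Of the 5 kinds of result, the median sum of the members in D1 MSN moved by more than the SD of the plate values without plate FACS086_4 (20151 TPM), with the listed genes of each cell rescaled to a common total (20461 TPM) and with copies added (22497 TPM). That of D2 MSN moved without plate FACS051_5 (17662 TPM), with the rescaling (23910 TPM) and with copies added (26504 TPM), and D2 MSN stayed the higher in each setting tried. Members found in D1 MSN had a median of 63.5 with a limit of 10 TPM.

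The number of members with a fold past 1 in size, 2 in the report, was 5 with either large plate left out and 8 with the difference of mean log2 values. It was 1 without cells under 2000 genes, with the cholinergic cells kept, without cell FACS051_5_D04, without cell FACS051_5_C06 and with a pseudocount of 10 TPM, where Rps10 had folds of 0.82 to 0.97. The share higher in D1 MSN was 59.7% without plate FACS086_4. The median fold turned from -0.05 to 0.08 without that plate (all genes 0.05) and to 0.03 where log2 values were averaged (all genes 0.16, so that the members still lay below them). In the latter, Rps27l had a fold of -0.19.

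The correlation of the sum with genes found was -0.091 without cells under 2000 genes, 0.15 with a limit of 10 TPM and 0.31 as a Pearson correlation of the log2 sum. The median pair correlation of members was 0.14 without plate FACS051_5, 0.11 without cells under 2000 genes, 0.16 with the cholinergic cells, 0.12 with the rescaling, 0.19 as a Pearson correlation, 0.14 given genes found, 0.13 without cell FACS086_4_B02 and 0.14 without cell FACS051_5_C06. The last 2 settings, leaving out single cells, and the added copies were chosen after the data were seen. The cause of these shifts was not tested. Depth is not held by TPM, and no detection limit was computed.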
